A study of Homo sapiens with 12 samples.

Results

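Tandem stop variants, in which a sense codon is followed by a stop codon and directly by another stop codon, were examined in 2 reporters of nonsense-mediated mRNA decay (NMD). Each variant is a randomized window of 10 bases: a codon at bases 1 to 3, a codon at bases 4 to 6, a stop codon or TGG at bases 7 to 9, and a closing base. A variant was taken as tandem when bases 1 to 3 were a sense codon and both bases 4 to 6 and bases 7 to 9 were TAA, TAG or TGA. This rule found 950 tandem variants among 41955 listed for the EJC-independent reporter and 1299 among 51306 listed for the EJC-enhanced reporter, of 2196 that are possible in each. Of these, 945 and 1295 reached a mean normalized count of 10 and were used. The libraries came from HEK293T cells, a human embryonic kidney line, which the labels call wild type and in which the EJC-independent or the EJC-enhanced library had been placed by Cre-Lox recombination at 1 site of the genome. Cells received the SMG1 inhibitor SMG1i at 0.5 µM or the vehicle DMSO for 24 hours, with 3 libraries in each of the 4 groups. The labels do not say whether the 3 libraries of a group came from separate cultures, and the place of integration has no coordinates in the sources used here.

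NMD degrades mRNAs on which translation ends too early. The kinase SMG1 phosphorylates the helicase UPF1 on such mRNAs, so an SMG1 inhibitor lets them accumulate. At a stop codon the release factor eRF1 enters the A site of the ribosome and the peptide is cut from the tRNA in the P site, which carries the amino acid of the codon just before the stop. An exon junction complex (EJC) downstream of the stop strengthens NMD, and the reporters are named after their dependence on it. A ribosome that reads through the first stop of a tandem meets another stop at the next codon, whereas after a stop followed by TGG, the tryptophan codon, it goes on in frame.

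Response here means RNA under SMG1i over RNA under DMSO, in log2. It was taken as the deposited log2 fold change with its sign turned round, because the tables do not state their numerator and variants with a stop lie below 0 as deposited. All signs below would turn if the tables' numerator was SMG1i. The tables hold a single comparison per variant and no value per library, so the error of a response is the deposited standard error over the 3 libraries of each group.

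The windows below are shown as examples of high and low single tandem variants: the 5 highest and the 5 lowest of each reporter among those that reached a mean normalized count of 100 and had a deposited adjusted p under 0.05. These conditions were met by 478 of 492 EJC-independent and 396 of 431 EJC-enhanced windows of that count. The low end of the list is therefore set by the call, and responses over all tandem variants used ran from -0.63 to 5.63 and from -2.53 to 6.68. Such high shares of calls are not particular to tandems. At 100 to 300 counts, 94.7% of EJC-independent tandems were called higher, beside 94.8% of variants with a single stop, in the place of the second stop. At 300 or more the shares were 100% and 99.9%. In the EJC-enhanced reporter they were 92.8% and 94.2% at 100 to 300, and 92.3% and 98.4% at 300 or more. The codon before the stops and the closing base are in lower case, and capitals mark the 2 stop codons.
EJC-independent, highest, glycine codon: ggtTAGTAAc
EJC-independent, second highest, alanine codon: gcaTAATGAc
EJC-independent, next, threonine codon: accTAGTAAa
EJC-independent, next, glycine codon: ggcTAATAAt
EJC-independent, next, proline codon: ccgTGATAGa
EJC-independent, lowest, threonine codon: accTAGTAGg
EJC-independent, next above, phenylalanine codon: ttcTAATAAa
EJC-independent, next above, arginine codon: cgcTGATAGg
EJC-independent, next above, isoleucine codon: atcTAATAGa
EJC-independent, next above, proline codon: cctTAGTAAt
EJC-enhanced, highest, aspartate codon: gacTGATAGt
EJC-enhanced, second highest, arginine codon: cgaTAATAAg
EJC-enhanced, next, leucine codon: ctaTAGTAAc
EJC-enhanced, next, threonine codon: actTAATGAg
EJC-enhanced, next, glycine codon: ggcTGATGAc
EJC-enhanced, lowest, proline codon: ccgTAATAGt
EJC-enhanced, next above, proline codon: ccgTAATGAa
EJC-enhanced, next above, serine codon: tcaTGATAGc
EJC-enhanced, next above, serine codon: tccTGATAGa
EJC-enhanced, next above, phenylalanine codon: ttcTGATGAg

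In the authors' deposited EJC-independent table, ggtTAGTAAc had a response of 3.80 (standard error 0.41) and accTAGTAGg had 0.88 (standard error 0.24). The same table gave the other 4 high windows 3.12 to 3.21 and the other 4 low windows 0.94 to 0.96. Threonine ACC stood at both ends, with 3.18 in accTAGTAAa and 0.88 in accTAGTAGg, 2 windows that differ at the last base of the second stop and at the closing base. In the authors' deposited EJC-enhanced table, gacTGATAGt had 6.68 (standard error 0.90) and ccgTAATAGt had 1.13 (standard error 0.45).

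Stop pairs after the same codon with the same closing base can be compared directly, and the tyrosine codon TAC with A at base 10 is listed with several of them in both tables. The first 3 windows stand in both tables, the next in that of the EJC-independent reporter and the last 4 in that of the EJC-enhanced reporter.
TAG then TAG: tacTAGTAGa
TGA then TAG: tacTGATAGa
TAG followed by TGG: tacTAGtgga
TAG then TAA: tacTAGTAAa
TAA then TAA: tacTAATAAa
TAA then TAG: tacTAATAGa
TAA then TGA: tacTAATGAa
TAG then TGA: tacTAGTGAa
The authors' deposited EJC-independent table gave 1.85 for tacTAGTAGa and 1.74 for tacTGATAGa, against 1.48 for tacTAGtgga, with standard errors of 0.23, 0.48 and 0.11. Its value for tacTAGTAAa was 3.80, from a mean normalized count of 28.4 and with a standard error of 0.95. The authors' deposited EJC-enhanced table gave 2.19 for tacTAGTAGa and 1.84 for tacTGATAGa, against 2.92 for tacTAGtgga, whose standard error was 1.71 at a mean normalized count of 351.2. That table also gave 2.21 for tacTAATAAa, 2.40 for tacTAATAGa and 2.66 for tacTAGTGAa, with standard errors of 0.72, 0.71 and 0.86. The value for tacTAATGAa in that table was -1.25 with a standard error of 1.02, a mean normalized count of 16.9 and no call (adjusted p 0.291). After the glycine codon GGC with A at base 10, the authors' deposited EJC-enhanced table gave 3.45 for ggcTAATAAa, 2.55 for ggcTAATAGa and 1.94 for ggcTGATAGa. Their standard errors were 0.66, 1.00 and 0.99, and ggcTGATAGa was not called (adjusted p 0.0761). The value for ggcTAGTAAa in that table was 1.03, close to the 1.11 of ggcTAGtgga, with standard errors of 0.82 and 0.77. Whether these GGC windows differ from each other was not tested.

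Tandem variants lay well apart from variants without a stop in both reporters. The side on which they lay follows from the choice of sign above, which used the stop variants, so the size of the gap is what was measured, and higher and lower under SMG1i hold only with that reading. The mean response of tandem variants in the EJC-independent reporter was 1.85 (3.60-fold, SD 0.71 over 945 variants), against -0.018 for variants with sense codons at bases 1 to 6 and TGG. The difference was 1.87 (95% interval 1.83 to 1.91, from the deposited standard errors). In the EJC-enhanced reporter tandem variants averaged 2.23 (4.68-fold, SD 0.96 over 1295 variants), against 0.026 without a stop, a difference of 2.20 (interval 2.16 to 2.25). The middle 80% of tandem variants lay between 1.04 and 2.69 in the EJC-independent reporter and between 1.13 and 3.32 in the EJC-enhanced reporter. Responses below 0 were seen in 6 and 23 tandem variants.

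By the authors' deposited EJC-independent table, 748 of 945 tandem variants were higher under SMG1i at an adjusted p under 0.05 (79.2%) and 0 were lower, while 64.8% of all variants tested there were higher and 1.00% lower. By the authors' deposited EJC-enhanced table, 964 of 1288 tandem variants with an adjusted p were higher (74.8%) and 1 was lower, against 63.9% and 0.357% of all variants tested. The lower window, chosen here after its value was seen, is aagTAATAAg with the lysine codon AAG, at -1.22 in the authors' deposited table (adjusted p 0.0375). For variants with a stop at bases 4 to 6 followed by TGG, the authors' deposited tables called 240 of 316 (75.9%) and 327 of 445 (73.5%) higher, and for those with a single stop at bases 7 to 9 they called 84.9% and 86.1%. The background share contains the variants without a stop, of which 4.09% and 2.76% were called higher.

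Read depth differed between these sets. The median mean normalized count of tandem variants was 106.7 in the EJC-independent reporter, beside 111.2 for stop then TGG and 245.2 for single stops at bases 7 to 9. For EJC-enhanced variants, it was 65.7 for tandem variants, beside 62.8 and 143.2. Tandem variants with a count of 10 to 50 were called in 46.5% of cases in the EJC-independent reporter, and those with 300 or more in 100% of 228 cases. Single stops at bases 7 to 9 in the same count ranges were called in 36.5% and 99.9% of cases. With the EJC-enhanced library the share for tandem variants was 51.0% at 10 to 50 and 92.3% at 300 or more, beside 53.9% and 98.4% for single stops at bases 7 to 9. Of the possible variants, 43.3% of tandems and 43.6% of stop then TGG were listed for the EJC-independent reporter, and 59.2% and 62.0% for the EJC-enhanced reporter. The listed tandems were uneven over codons: proline, with 124 and 140 of 144 possible, was nearly complete, while glutamate had 3 and 12 of 72 and lysine 8 and 16 of 72.

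Whether a stop codon in place of the tryptophan codon after the first stop changes the response was tested in windows with the same bases 1 to 6 and the same base 10. In the EJC-independent reporter tandem variants were slightly higher, by 0.10 on the log2 scale (95% interval 0.011 to 0.19, Wald p 0.0274, 558 pairs that use 265 TGG variants). The paired means were above 0 for 34 of 54 codons at bases 1 to 3, with an SD of 0.40 over codons. This call ended above a count minimum of 50, at 0.063 (p 0.107), and held in the other alternatives that give a test. Among EJC-enhanced windows the difference was 0.043 (interval -0.047 to 0.13, Wald p 0.352, 976 pairs), with 32 of 60 codons above 0. The reporters themselves did not differ detectably in this quantity (EJC-independent minus EJC-enhanced 0.060, adjusted Wald p 0.519).

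Split by first stop, the EJC-independent difference was 0.087 with TGA, 0.13 with TAA and 0.091 with TAG first. Split by second stop it was 0.12 with TGA, 0.063 with TAA and 0.12 with TAG second. None of these 6 passed after adjustment, with 1 at an unadjusted Wald p under 0.05. The EJC-enhanced differences lay between -0.032 and 0.11, and 0 of 6 passed at either level. Of the 9 pairs, 8 were above 0 in the EJC-independent reporter, from -0.10 for TGA then TAA to 0.22 for TGA then TGA, and 6 in the EJC-enhanced reporter, from -0.093 for TGA then TAG to 0.22 for TAG then TAA. No pair passed after adjustment in either reporter, and 1 pair, TAG then TAA of the EJC-enhanced reporter, had an unadjusted Wald p under 0.05. With inverse variance weights, which favour deeply sequenced windows, 4 of the 9 EJC-independent pairs and all 3 second stops (0.091 to 0.17) passed. The second stops TGA and TAG each differ from TGG at a single base. Against TGG, second stop TGA stood at 0.12 (adjusted Wald p 0.0822) in the EJC-independent reporter and 0.064 (adjusted p 0.416) in the EJC-enhanced reporter. Second stop TAG stood at 0.12 (adjusted Wald p 0.0822) and -0.032 (adjusted p 0.610).

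The 9 stop pairs had close mean responses. In the EJC-independent reporter they ran from 1.77 for TAG then TGA (99 variants) to 1.91 for TAA then TAA (104 variants), and the SD within a pair was between 0.59 and 0.82. The pairs that start with TGA stood at 1.88 before TGA, 1.89 before TAA and 1.895 before TAG. In the EJC-enhanced reporter the pairs ran from 2.13 for TAG then TGA (148 variants) to 2.31 for TGA then TAA (161 variants). TAG then TGA was the lowest pair in both reporters, but no test set it apart. The first and second stop did not interact detectably (Wald chi-square on 4 degrees of freedom, p 0.856 for the EJC-independent and p 0.382 for the EJC-enhanced reporter). A repeated stop codon differed from a mixed pair by 0.039 (interval -0.050 to 0.13) in the EJC-independent reporter and by -0.0059 (interval -0.10 to 0.089) in the EJC-enhanced reporter.

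Among first stops, TGA gave a higher response than TAG in the EJC-independent reporter. In windows matched at every other base, TGA exceeded TAG by 0.17 (interval 0.036 to 0.30, adjusted Wald p 0.0373, 175 pairs, 31 of 47 codons above 0) and TAA by 0.069 (adjusted p 0.333, 201 pairs), while TAA exceeded TAG by 0.061 (adjusted p 0.333). The difference between TGA and TAA passed at 0.15 above a count minimum of 50 and at 0.13 with inverse variance weights. With TGG after the stop, the same differences were 0.12 for TGA minus TAG and 0.26 for TGA minus TAA (adjusted p 0.427 and 0.0588, from 63 and 59 pairs). For EJC-enhanced variants, no difference between first stops of a tandem passed (differences from -0.046 to 0.046, lowest adjusted Wald p 0.691). With TGG after the stop, TAA exceeded TAG there by 0.28 (adjusted p 0.0173, 112 pairs), a call that ended above a count minimum of 50 (0.21, adjusted p 0.0891). In tandems, first stop TGA minus TAG did not differ detectably between the reporters (EJC-independent minus EJC-enhanced 0.12, adjusted Wald p 0.354).

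Between second stops, no difference passed in the EJC-independent reporter and 1 passed in the EJC-enhanced reporter. In the EJC-independent reporter TGA minus TAA was -0.13 (SE 0.066, adjusted Wald p 0.15), TGA minus TAG -0.034 and TAA minus TAG 0.031 (adjusted p 0.636 for both). With the EJC-enhanced library TAA in second place exceeded TAG by 0.17 (interval 0.050 to 0.30, adjusted Wald p 0.0186, 304 pairs, 36 of 58 codons above 0). That call ended above a count minimum of 50 (0.072, adjusted p 0.400), with inverse variance weights (0.11, adjusted p 0.11) and with the error taken from the spread over codons (adjusted p 0.0989). Nor did the reporters differ detectably in TAA minus TAG as second stop (EJC-independent minus EJC-enhanced -0.14, adjusted Wald p 0.280). The closing base, which follows the second stop, passed for none of the 4 bases in either reporter. Its largest differences from the other bases were 0.080 for A in the EJC-independent reporter (adjusted Wald p 0.489) and 0.098 for C in the EJC-enhanced reporter (adjusted p 0.221).

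Tandem variants were next compared by the codon before the stops. The means of the 61 codons varied beyond their deposited errors in the EJC-independent reporter (Cochran Q 134.8 on 60 degrees of freedom, p 1.12e-07) and in the EJC-enhanced reporter (Q 86.6, p 0.0138). The SD of codon means was 0.298 and 0.253, and whether the reporters differ in it was not tested. Values were centred on their stop pair and closing base, and each amino acid was set against the other codons. In the EJC-independent reporter 2 of 20 amino acids were higher, glycine and alanine, and 3 were lower, phenylalanine, histidine and arginine. Among EJC-enhanced windows 0 of 20 passed, with 3 at an unadjusted Wald p under 0.05 (aspartate, proline and serine).

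Glycine, the smallest amino acid, had the highest mean in the EJC-independent reporter, 2.29 over 38 tandem variants against 1.83 for the others. Its effect was 0.49 ± 0.14 (SE, adjusted Wald p 0.00293). All 4 glycine codons were above the mean of all codons, at 2.43 for GGC, 2.39 for GGG, 2.20 for GGT and 2.08 for GGA, with 13, 6, 11 and 8 variants. The effect was above 0 in each of 12 subsets by first stop, second stop, closing base and count, from 0.21 to 0.86. Here and below, these subsets overlap and regroup the variants that gave the effect, so they give no separate support. With a linear term for G and C in the codon the glycine effect was 0.35 and did not pass (adjusted p 0.064). Glycine tandems were shallow, with a median count of 55.6, and only 38 of 144 possible were listed.

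Alanine followed with 2.21 over 65 variants against 1.82 for the others, an effect of 0.45 ± 0.095 (SE, adjusted Wald p 5.24e-05). Its codons gave 2.41 for GCG, 2.21 for GCA, 2.18 for GCC and 2.13 for GCT, which rank 3rd, 6th, 8th and 9th of 61. The authors' deposited table called 56 of the 65 alanine tandems higher (86.2%), beside 79.2% of all tandems, 64.8% of all variants and 91.1% of proline tandems. The effect was above 0 in all 12 subsets, from 0.28 to 0.56, and passed in every alternative that gives a test, although inverse variance weights brought it down to 0.16 (adjusted p 0.0265). In the EJC-enhanced reporter glycine stood at 0.011 ± 0.16 and alanine at 0.15 ± 0.11 (SE, neither past the threshold). The difference between reporters was 0.48 for glycine and 0.29 for alanine, with adjusted Wald p 0.128 and 0.135 over 20 amino acids.

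Phenylalanine, an aromatic amino acid, was low in the EJC-independent reporter, with a mean of 1.52 over 43 variants against 1.86 for the others and an effect of -0.35 ± 0.097 (SE, adjusted Wald p 0.00289). Both codons were low, TTT at 1.40 and TTC at 1.59, and the effect was below 0 in each of the 12 subsets. It did not pass with the linear term for G and C (-0.21, adjusted p 0.101). Histidine averaged 1.62 over 49 variants (effect -0.24, adjusted Wald p 0.0434), with CAC at 1.60 and CAT at 1.63. Arginine averaged 1.66 over 81 variants (effect -0.23, adjusted p 0.0163), lowest at CGG with 1.40. It lay above the other amino acids in 1 of the 12 subsets, by 0.19 with A at base 10 (16 variants). The arginine difference was -0.025 with T, -0.44 with C and -0.43 with G at base 10. Histidine lost its call with no count filter, without centring, with the G and C term and with the error from the spread over variants (adjusted p 0.0608 to 0.094), and arginine with the last of these (adjusted p 0.134).

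Threonine, tyrosine and tryptophan did not pass in the EJC-independent tandems. Threonine averaged 1.97 (63 variants, effect 0.12 ± 0.095), tyrosine 1.69 (29 variants, effect -0.15 ± 0.13) and tryptophan 1.36 (13 variants, effect -0.42 ± 0.20, adjusted Wald p 0.116). Among windows above a count minimum of 50 threonine passed at 0.30 (adjusted p 0.00131) and tyrosine at -0.23 (adjusted p 0.0394), with serine higher and asparagine lower as well. Inverse variance weights gave threonine 0.20 and tyrosine -0.27, both past the threshold. Tryptophan stood at -0.023 above a count minimum of 50 (8 variants) and at -0.034 with inverse variance weights. The other extreme means were lysine at 2.16 (8 variants) and serine at 1.97 (108 variants) at the high end, and glutamate at 1.23 (3 variants) at the low end. The effect of lysine, 0.35, was -0.13 above a count minimum of 50, 0.080 with inverse variance weights and 0.0079 by median. By single codon, AAG (lysine, 2.51, 4 variants) was highest and GAG (glutamate, 0.97, 1 variant), AAT (asparagine, 1.28, 5 variants), TGG (tryptophan, 1.36, 13 variants) and GAA (glutamate, 1.37, 2 variants) lowest.

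In the EJC-enhanced tandems aspartate was highest at 2.59 (31 variants, effect 0.40, adjusted Wald p 0.082), followed by methionine at 2.47 (9 variants), proline at 2.34 (140 variants, effect 0.16, adjusted p 0.082) and alanine at 2.34 (88 variants). Glutamate at 1.76 (12 variants), lysine at 1.93 (16 variants), tyrosine at 2.05 (40 variants) and serine at 2.05 (148 variants, effect -0.20, adjusted p 0.103) were lowest. Several of these moved above a count minimum of 50, where few variants were left for some. Aspartate passed at 0.47 (17 variants, adjusted p 0.0289), methionine at 1.54 (2 variants, adjusted p 0.0467), asparagine at 1.03 (7 variants, adjusted p 0.0269) and lysine at -1.32 (3 variants, adjusted p 0.00372). Proline stood at 0.011 there, and glutamate turned to 0.59 (4 variants, adjusted p 0.313). Lysine also passed with inverse variance weights (-0.84, adjusted p 0.00317). Serine lay below the other amino acids in all 12 subsets and passed above a count minimum of 50 (-0.29, adjusted p 0.0239) and with inverse variance weights (-0.19, adjusted p 0.00317). By codon, GAT (2.72), CGT (2.56), GTA (2.53) and GAC (2.50) were highest and GAA (1.33), TTA (1.61), AGC (1.78) and AAG (1.81) lowest.

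Tandem variants were next set against variants whose only stop is at bases 7 to 9, with the same last codon and stop codon and with T as the following base, since a tandem always has T after its first stop. The stop of these variants lies 1 codon further downstream and their penultimate codon varies, so the match is not complete. In the EJC-independent reporter tandem variants averaged 1.85 and their single-stop counterparts 1.72, a difference of 0.13 (interval 0.083 to 0.17, Wald p 1.03e-08), with 40 of 61 last codons above 0. It held in each alternative that gives a test, with values from 0.097 to 0.13. Stop then TGG, matched in the same way over 58 codons, exceeded its own single-stop counterparts by 0.041 (interval -0.032 to 0.11, Wald p 0.271). For EJC-enhanced variants, tandem variants were lower than single stops by a small margin, at -0.060 (interval -0.11 to -0.014, Wald p 0.0112). Stop then TGG stood at a similar -0.056 (interval -0.13 to 0.021, Wald p 0.153). The tandem call ended with inverse variance weights (-0.032, Wald p 0.092), and above a count minimum of 50 the tandem value was 0.028 (Wald p 0.262). The reporters differed in tandem minus single stops by 0.19 (adjusted Wald p 6.49e-08), and by 0.071 above a count minimum of 50 (adjusted p 0.14).

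Mean responses of these sets, without matching, were also taken by read depth. In windows with a count of 300 or more, EJC-independent tandems averaged 1.79 (228 variants), stop then TGG 1.699 (89 variants) and single stops at bases 7 to 9 1.702 (13050 variants). At 100 to 300 counts the same sets averaged 1.82 (264 variants), 1.74 and 1.73, close to the values at 300 or more. At 10 to 50 counts they averaged 1.93, 1.73 and 1.69, and at 50 to 100 counts, where stop then TGG was above tandems, 1.84, 1.92 and 1.79. The gap between tandems and stop then TGG thus showed no steady trend over these ranges. With the EJC-enhanced library tandems averaged 2.40 at 300 or more (66 variants) and 2.06 at 10 to 50, beside 2.44 (20 variants) and 2.05 for stop then TGG and 2.31 and 2.14 for single stops at bases 7 to 9. At 100 to 300 counts these EJC-enhanced sets averaged 2.35, 2.37 and 2.33, and at 50 to 100 counts 2.30, 2.33 and 2.32. The part of depth in the differences was not tested further.

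By amino acid, the difference between tandems and single stops in the EJC-independent reporter was highest for alanine, at 0.55 (65 variants, interval 0.38 to 0.71, adjusted Wald p 2.89e-09), with leucine at 0.18 and proline at 0.15 also past the threshold (adjusted p 0.0165 and 0.0149). As last codon of a single stop at bases 7 to 9, alanine showed an effect of -0.020, beside 0.45 in tandems, and this difference of 0.47 passed over 20 amino acids (adjusted Wald p 2.29e-05). The arginine effect, relative to the other codons, was lower in tandems than as last codon of a single stop, -0.23 against 0.014 (adjusted p 0.0209). So was the threonine effect, 0.12 against 0.38 (adjusted p 0.0485). The single-stop effects were taken over every base after the stop. In the matched difference of responses, arginine stood at -0.13 and threonine at -0.14, neither past the threshold (adjusted Wald p 0.166 and 0.18). In stop then TGG the effects were 0.26 for alanine, -0.35 for arginine and 0.40 for threonine (adjusted Wald p 0.366, 0.231 and 0.128). Alanine tandems did not differ detectably from matched stop then TGG (0.18, adjusted Wald p 0.698). Glycine had 0.49 in tandems and 0.43 in single stops, phenylalanine -0.35 and -0.25, and histidine -0.24 and -0.24, which did not differ detectably. Among EJC-enhanced windows serine was lower in tandems than in matched single stops, at -0.22 (adjusted p 0.0162), and the other 19 amino acids did not pass. That call ended with the error from the spread over variants.

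Over the 20 amino acids, the EJC-independent tandem effects correlated with those of the last codon of single stops (Pearson r 0.48, Spearman rho 0.44) more than with those of the penultimate codon (r 0.19, rho 0.16) or of the same codon in variants without a stop (r 0.029, rho -0.087). Among the 15 amino acids with 20 or more tandem variants the values were 0.66, 0.27 and 0.092 for r. The tandem effects and those of stop then TGG had r 0.62. The points share libraries and depth, and these values describe likeness without a test. In the EJC-enhanced reporter r was 0.21 with the last codon, 0.39 with the penultimate codon and 0.31 without a stop, and over the 16 amino acids with 20 or more tandem variants the order changed, at 0.31, 0.23 and 0.16. With stop then TGG the EJC-enhanced tandem effects had r 0.32 and Spearman rho 0.063 over the 20 amino acids. The difference between a tandem and stop then TGG did not vary detectably with the codon before the stops (Cochran Q 47.1 on 53 degrees of freedom, p 0.702, in the EJC-independent and Q 71.7 on 59, p 0.124, in the EJC-enhanced reporter), and no amino acid passed in this difference, with 0 and 1 at an unadjusted Wald p under 0.05.

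Both tables hold 722 of the tandem windows used. The response was lower in the EJC-independent than in the EJC-enhanced reporter for 505 of them (69.9%), with means of 1.83 and 2.34. Relative to variants without a stop, the tandem response differed between the reporters by -0.33 (EJC-independent minus EJC-enhanced, interval -0.40 to -0.27, adjusted Wald p 1.24e-24). Across the shared windows Pearson r of the responses was -0.013 and Spearman rho -0.0099, and r was -0.058 among the 263 with a count of at least 100 in both tables. These values describe the windows and carry no test. Error was large beside the spread of single windows. Over all tandem variants used, the SD was 0.71 and 0.96, and the root mean square standard error was 0.65 and 0.82. The correlations therefore cannot show whether the response of a window carries over between reporters.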

How the data were processed

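Each table compares SMG1i with DMSO over the 6 libraries of a reporter. The submitters' processing notes name DESeq and DESeq2. Their versions, the read processing and the assignment of reads to variants are not given here by any source. Per the file headers, the authors deposited for each variant a mean normalized count (a signal averaged over libraries), the log2 fold change and its standard error, the Wald score, and p-values before and after adjustment. Depth per library is unknown, and so is precision beyond the deposited standard errors. The tables were normalized apart.

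Variants were used from a mean normalized count of 10 upwards. Differences are unweighted means. Their error was summed from the deposited standard errors, treating variants as independent, and tested by a two-sided Wald test with Benjamini-Hochberg adjustment within each family and reporter (threshold 0.05). Variants are sequences in the same libraries, not replicates. The SD over tandem responses, 0.71 and 0.96, exceeded the root mean square standard error, 0.65 and 0.82. Alternatives were an error from the spread over codons or variants, other count minimums, inverse variance weights, medians, no matching, no centring and a G and C term. The tests of first and second stop, base 10 and amino acid were tried on simulated data. The noise there was independent for each variant and drawn from the deposited standard errors, as the tests assume. Error shared between variants, and the comparisons with TGG and with single stops, were not checked in this way. Python 3.11.15, pandas 2.3.3 and scipy 1.17.1 were used.

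Members and lists were chosen with earlier results of these data known. The named contexts are all stop pairs and closing bases, glycine, tyrosine, threonine and tryptophan, the amino acids and codons at the 4 highest and 4 lowest places, the 5 highest and 5 lowest single windows, and the pairs after GGC and TAC. The tests of codon means and of amino acid effects between sets of variants, and the 12 subsets, were added after the data were seen. The subsets overlap and reuse the same variants.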

Additional observations from a re-analysis of the deposited data

Results flagged for a closer look

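The tandem response relative to variants without a stop was smaller in the EJC-independent than in the EJC-enhanced reporter by -0.33 on the log2 scale (1.87 and 2.20, adjusted Wald p 1.24e-24). It is not particular to tandems. Mean responses were also lower in the EJC-independent reporter for stop then TGG (1.76 and 2.23) and single stops at bases 7 to 9 (1.72 and 2.29). The difference between tandem variants and matched single stops at bases 7 to 9 was larger in the EJC-independent reporter by 0.19 (0.13 and -0.060, adjusted Wald p 6.49e-08). Above a count minimum of 50 that difference was 0.071 (adjusted Wald p 0.14), with the EJC-enhanced value at 0.028. Both stand here because a Wald test of the difference itself passed. That test treats variants as independent, although the variants of a reporter share the same 3 libraries per group, and the tables were normalized apart. Its p-values rest on the deposited standard errors of single variants and leave out any error that variants share. They measure neither a spread over sequences nor one over cultures, which the labels do not identify.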

How the results depend on the processing

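Of 452 recomputed values, which cover the stop codon comparisons and 8 of the amino acids (alanine, arginine, glycine, histidine, phenylalanine, threonine, tryptophan and tyrosine), 377 kept their direction and their side of the threshold or, for medians, which carry no test, moved by less than 1 SD, 14 lost a call, 13 gained a call, 17 moved as counts and 31 changed sign, of which 30 passed on neither side. No paired analysis was possible because the tables hold no values per library, and for the same reason leaving out a replicate and other scalings were not run. Low depth limits single windows.

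Above a count minimum of 50, the tandem minus TGG difference of the EJC-independent reporter was 0.063, the second stop difference TAA minus TAG of the EJC-enhanced reporter 0.072, and the reporter difference of tandem minus single stops 0.071, none past the threshold, while TGA minus TAA as first stop passed at 0.15. Amino acids called higher and lower numbered 4 and 5 for EJC-independent and 3 and 2 for EJC-enhanced tandems, and 5 differed from single stops in the EJC-enhanced reporter. Signs turned in the EJC-independent reporter for TAA minus TAG as second (-0.073) and first stop (-0.0093), C at base 10 (0.040), TAG as first stop against TGG (-0.034), TGA minus TAG before TGG (-0.018) and alanine against TGG (-0.052). In the EJC-enhanced reporter they turned for tandem minus single stops (0.028), stop then TGG minus single stops (0.045), TGA minus TAA as second stop (-0.091), TAA minus TAG as first stop (0.093), G at base 10 (0.066), TGA minus TAG before TGG (-0.061), alanine against TGG (-0.0012) and the effects of alanine (-0.018), arginine (-0.068) and threonine (0.10).

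With inverse variance weights, 4 stop pairs and 1 amino acid passed against TGG, 6 amino acids passed against single stops, and 4 amino acids were higher with 6 lower among EJC-independent tandems. Among EJC-enhanced tandems 2 amino acids were lower and 2 passed against single stops. TGA minus TAA as first stop passed at 0.13, while TAA minus TAG as second stop (0.11) and tandem minus single stops (-0.032) lost their calls in the EJC-enhanced reporter. Signs turned in the EJC-independent reporter for TAA minus TAG as second (-0.039) and first stop (-0.0060), A (-0.026) and C (0.0056) at base 10, and, before TGG, TGA minus TAG (-0.059) and TAA minus TAG (-0.039). In the EJC-enhanced reporter they turned for TGA minus TAA as second stop (-0.014) and TAA minus TAG as first stop (0.00033).

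With the error from the spread, 1 amino acid was lower and 6 passed against single stops in the EJC-independent reporter, 0 passed against single stops in the EJC-enhanced reporter, and its second stop difference of 0.17 lost its call. Without matching, tandem minus TGG in the EJC-enhanced reporter was -0.0050, with TGA as first stop at -0.035 and TGA as second stop at -0.0011. With the G and C term 1 amino acid was higher and 1 lower among EJC-independent tandems, while glycine (-0.11) and phenylalanine (0.076) turned among EJC-enhanced tandems. With no count filter, TAA minus TAG before TGG was -0.0042 in the EJC-independent reporter and TAA as first stop against TGG 0.0070 in the EJC-enhanced reporter. Among the other amino acids, none called under either setting, signs turned above a count minimum of 50 for EJC-independent lysine (-0.13), leucine (0.046) and valine (-0.038) and EJC-enhanced glutamate (0.59) and isoleucine (-0.12), with inverse variance weights for EJC-independent aspartate (0.063) and leucine (0.0077) and EJC-enhanced isoleucine (-0.0037), with the G and C term for EJC-independent proline (-0.022) and isoleucine (0.0059), with no count filter for EJC-enhanced isoleucine (-0.035), and without centring for EJC-independent methionine (-0.017). By median, some values that had not been called lay on the other side of 0 and are not among the 31. They were, in the EJC-independent reporter, TGA minus TAG (0.054) and TAA minus TAG (-0.015) as second stop, TAA minus TAG before TGG (-0.014) and C at base 10 (0.0073), and in the EJC-enhanced reporter TAG as second stop against TGG (0.058), A (0.055) and T (0.0096) at base 10 and alanine against single stops (-0.034). The effects of EJC-independent leucine (0.0074) and methionine (-0.0043) and of EJC-enhanced glutamine (-0.053), phenylalanine (0.038) and threonine (0.023) also lay on the other side of 0. The cause of these changes was not tested.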
